A study of Mus musculus with 12 samples.

Results

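A set of 10 components of insulin and insulin-like growth factor (IGF) signalling were followed in the mouse ventral tegmental area (VTA) with age: the ligands Igf1 and Igf2, the receptors Igf1r and Insr, the receptor substrates Irs1 and Irs2, the binding proteins Igfbp2 and Igfbp5, and the kinases Akt1 and Mtor. Every probe set that the array annotation assigned to exactly 1 of these symbols was taken, which gave 26 probe sets for the 10 genes, out of 45037 probe sets tested and 18193 genes named. The VTA is a midbrain region that contains dopaminergic neurons, and whole dissected tissue was used. The groups were wild type mice, C57 in the labels and C57BL/6 in the methods of the study, at 2 months (young), 10 months (middle aged) and 18 months (late middle-aged) of age. The sex of the animals was not stated in the labels. There were 4 arrays for each of the 3 ages, and the RNA on an array came from a pool of 5 mice, so errors and p-values describe the spread between pools and not between animals. Expression is given on the log2 scale for each probe set, and a level on one probe set was not compared with a level on another, because probe sets bind with different strength. In tissue of mixed cell types, fewer cells of a type and less RNA per cell cannot be told apart.

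Insulin and the IGFs bind related receptor tyrosine kinases, which phosphorylate adaptor proteins (IRS1 and IRS2) and through them recruit phosphoinositide 3-kinase (PI3K). PI3K activates AKT, which restrains the FOXO transcription factors, GSK3 and the TSC1-TSC2 complex, and the release from TSC allows the kinase mTOR to promote protein synthesis. IGF-binding proteins hold the ligands in the extracellular space, and in the brain the pathway is known for roles in neuronal survival, metabolism and the pace of aging.

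Young arrays 3 and 4 were nearly identical. They differed by over 1 on the log2 scale in 1 probe set, where any further pair within an age (17 pairs) differed in 85 to 4905, and their mean was counted as 1 sample (n = 3 at 2 months and n = 4 at either later age). Of 11 dopaminergic markers, Th (tyrosine hydroxylase), Slc6a3, Slc18a2, Ddc, Aldh1a1, Ret and Nr4a2 had means of at least 11.6 at each age, while the transcription factors Foxa2, Pitx3, Lmx1b and En1 had means between 6.87 and 9.80. The array carries probe sets at the 3′ and 5′ ends of Actb and Gapdh, whose difference grows where the labelled RNA is short. This 3′ minus 5′ difference lay between 3.29 and 3.63 in the young samples, 1.69 and 2.44 at 10 months and 1.64 and 2.17 at 18 months, so that young and later arrays did not overlap. Entered as a covariate in an alternative limma fit, it left no probe set of the whole array called at either later age, with 1748 at an unadjusted p under 0.05 at 18 months. The mean log2 level of the poly-A control probe sets also differed with age. It was at most 6.26 in the young samples, 6.37 to 6.56 at 10 months and at least 6.73 at 18 months. No pair of ages overlapped in this mean, so 10 and 18 months differed in a control as well. The part of the poly-A controls in the changes was not tested.

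A probe set is referred to as called if the limma test gave an adjusted p under 0.05 and the fold change was over 1.3. Comparing 18 with 2 months, 2 of the 26 probe sets were called (7.69%, against 7.46% of all probe sets), 1 of them higher (4.55% of all probe sets) and 1 lower (2.91%). They were a probe set of Akt1, which rose 3.08-fold, and a probe set of Igf1r, which fell 1.38-fold. At its probe set with the highest mean, referred to as the brightest, none of the 10 genes was called by limma, compared with 8.82% of all genes (5.76% higher and 3.06% lower), 1 had an unadjusted p under 0.05 (Irs1), and 6 of the 10 changes were positive and 4 negative. At an unadjusted p under 0.05 there were 5 of the 26 probe sets. The median change of the 26 probe sets was −0.09 on the log2 scale, beside −0.06 over all probe sets. The groups of samples did not overlap in 4 of 26 probe sets (15.4%, against 23.6% of all), 1 higher and 3 lower at 18 months. The share called and the share without overlap were thus near or under those of the whole array. A gene with a called probe set of any brightness was found for 2 of 10 (20%, beside 14.6% of all genes). This share depends on the number of probe sets per gene, which was 26 for the 10 genes and 34945 for all 18193.

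**Figure D1:**
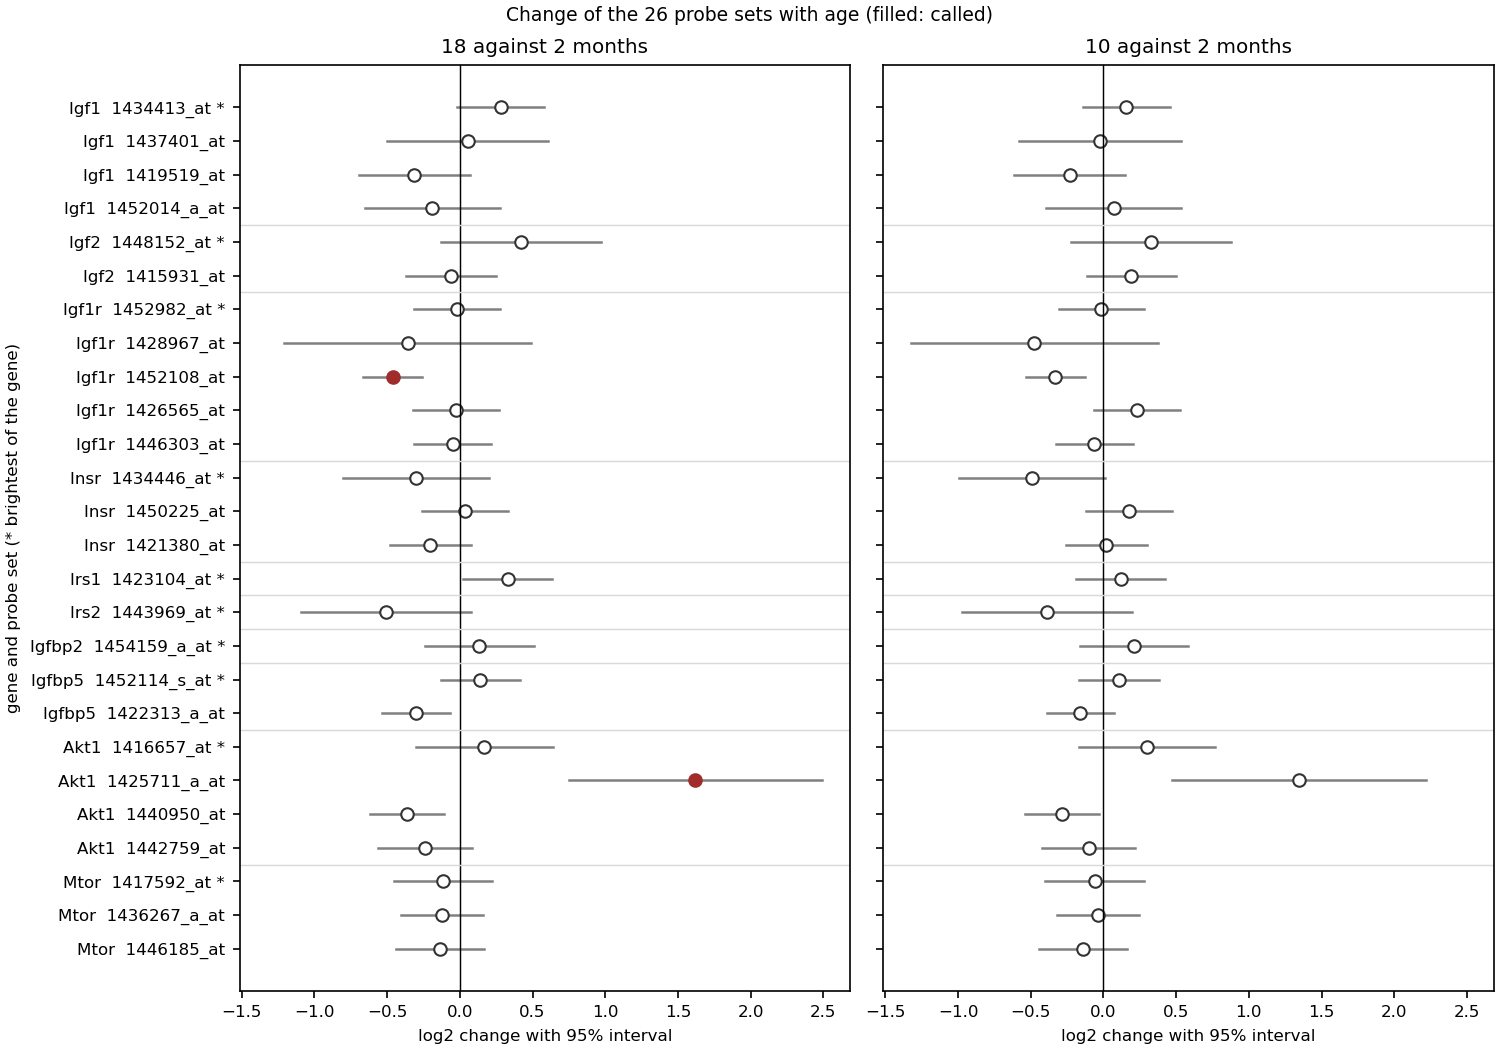
Log2 change with 95% interval (horizontal axis) of each of the 26 probe sets (vertical axis, grouped by gene, * for the brightest) at 18 against 2 months and at 10 against 2 months. Filled points are called: Akt1 1425711_a_at, at 1.62, and Igf1r 1452108_at, at −0.46, both at 18 against 2 months.

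Comparing 10 with 2 months, limma called none of the 26 probe sets, against 1.36% of the array, and 3 had an unadjusted p under 0.05 (Akt1 1425711_a_at, Akt1 1440950_at and Igf1r 1452108_at; lowest adjusted p 0.102). The same 3 probe sets were those whose groups did not overlap (11.5%, against 12.6% of all probe sets), 1 higher and 2 lower at 10 months. None of the 10 genes was called at the brightest probe set, where 1.48% of all genes were. The comparisons of 10 and of 18 months use the same young samples and are not independent. Between 10 and 18 months limma called none of the 26, with none at an unadjusted p under 0.05, and 0.00222% of all probe sets (1 probe set) was called, or 0% of genes at the brightest probe set. Changes in this interval ran from −0.26 to 0.28, and the lowest adjusted p was 0.847. Only a dim probe set of Igf2 (1415931_at) had groups that did not overlap there (3.85% of the 26, against 2.73% of all), lower at 18 months. Whether the change from 2 to 10 months was unequal to that from 10 to 18 months was also tested: none of the 26 passed, as none did on the whole array (0%), and 1 of them, Igf1r 1426565_at, had an unadjusted p under 0.05.

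Neither ligand was called. Igf1, the main IGF of the adult, is produced in the brain by neurons and glia as well as arriving with the blood. At its brightest probe set (1434413_at) Igf1 had log2 values of 9.47, 9.38 and 9.58 in the 3 young samples, of 9.86, 9.45, 9.64 and 9.59 in 10-month arrays 1 to 4, and of 9.94, 9.92, 9.48 and 9.69 in 18-month arrays 1 to 4. Arrays 1, 2 and 4 at 18 months lay above every young sample, while array 3 fell within the young range. The change at 18 months was 0.28 ± 0.14 (SE; 95% interval −0.02 to 0.58, limma adjusted p = 0.241). The other 3 probe sets of Igf1 had changes of 0.05 (1437401_at), −0.31 (1419519_at) and −0.19 (1452014_a_at), none called, so that the 4 probe sets were split evenly in sign.

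Igf2 encodes the IGF abundant in the fetus, which in adult brain comes largely from the meninges, vessels and choroid plexus. Its brightest probe set (1448152_at) read 8.31, 8.22 and 8.71 at 2 months, 8.76, 9.11, 8.40 and 8.70 at 10 months and 9.35, 8.47, 9.16 and 8.35 at 18 months. Arrays 1 and 3 at 18 months were above all young samples, arrays 2 and 4 were within the young range, and the SD was 0.26 at 2 months and 0.50 at 18 months. The change at 18 months was 0.42 ± 0.25 (95% interval −0.13 to 0.97, adjusted p = 0.351) and that at 10 months was 0.33 ± 0.25 (adjusted p = 0.611). Samples separated on the first principal component of all probe sets, which held 44.2% of the variance, and 4 samples lay on its positive side: array 2 of the young, array 3 at 10 months and arrays 2 and 4 at 18 months. These are also the lowest samples of Igf2 at each age, so a fit without them was not read for this gene.

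Markers of meninges and fibroblasts were set beside Igf2. The log2 of the summed level of 10 such genes (Col1a1, Dcn and others) was 9.93, 9.76 and 10.2 in the young samples, 9.86, 10.3, 9.48 and 9.83 in 10-month arrays 1 to 4 and 10.1, 9.65, 10.0 and 9.50 in 18-month arrays 1 to 4. Within each age, samples took the same order for this sum as for Igf2 1448152_at. At 2 and at 18 months this order was also the reverse of that on the first principal component, which held 44.2% of the variance of all probe sets. The sums of 8 vessel genes and of the choroid plexus list did not take the order of Igf2 at any age. Of the meninges and fibroblast list, 1 gene fell at 18 months (Col3a1) and 9 were not called, where 8.82% of all genes were called. Its median change was −0.16, with 3 of the 10 genes positive, while Igf2 changed by 0.42. The choroid plexus list (8 genes measured, 1 of them called, Clic6, which rose) ran from 9.21 to 10.4, 9.08 to 9.89 and 9.10 to 9.50 at 2, 10 and 18 months. The part of either tissue in the Igf2 values was not tested.

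**Figure D2:**
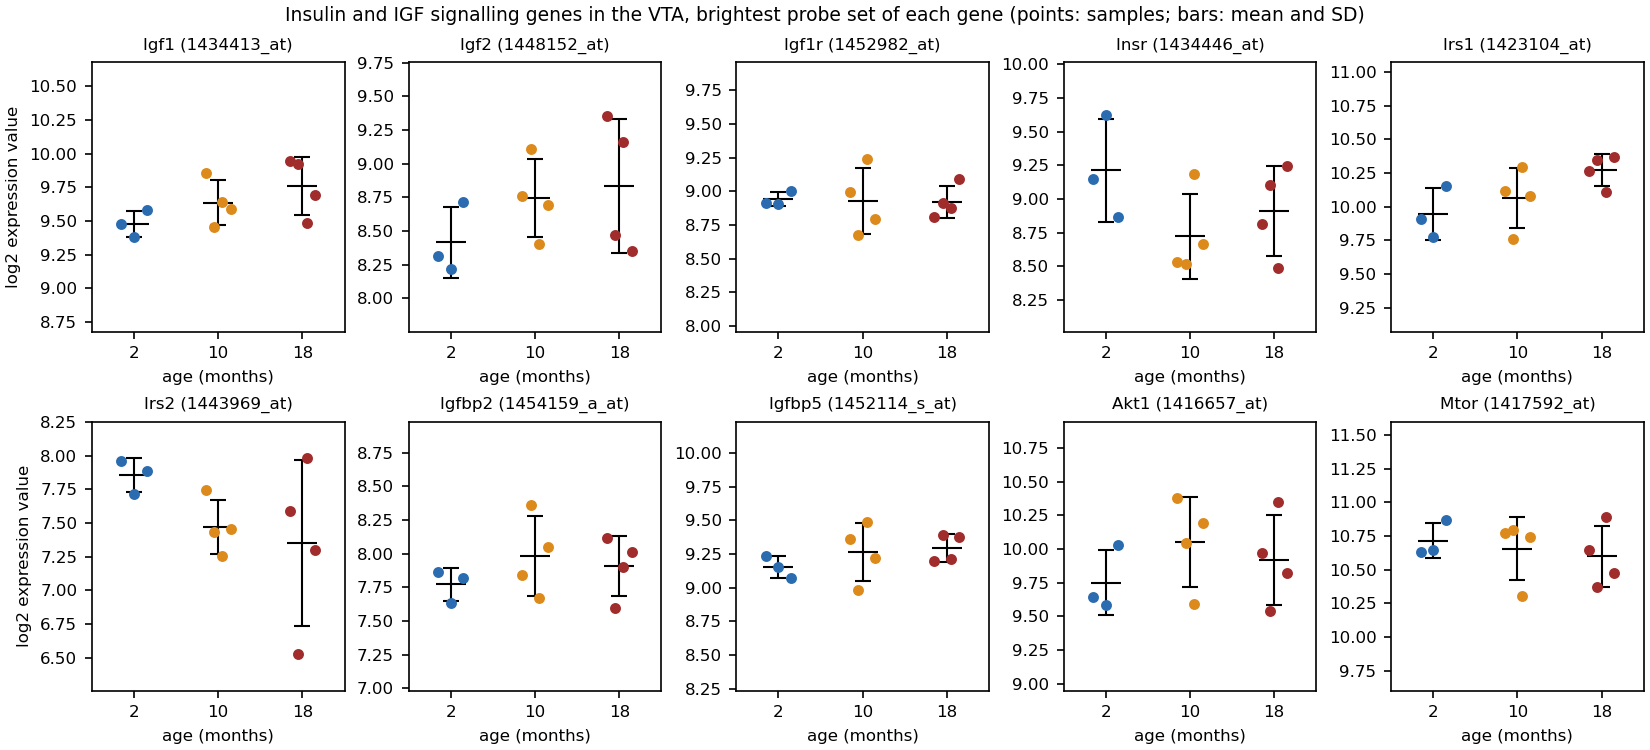
Log2 expression value (vertical axis) by age in months (horizontal axis) at the brightest probe set of each of the 10 genes; points are samples (3, 4 and 4) and bars are the mean and SD. The ages overlap in every panel, and the spread at 18 months is widest for Irs2 (SD 0.62) and Igf2 (SD 0.50).

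Among the receptors, Igf1r (the IGF1 receptor) had 5 probe sets, all with changes below 0 at 18 months, of which 1 was called. Those of 1452982_at, 1426565_at and 1446303_at (−0.02, −0.02 and −0.05) were smaller in size than the median of −0.06 over all probe sets. The called one did not exceed the array median in any of the 11 samples. The called probe set, 1452108_at, read 6.08, 6.02 and 6.02 in young samples, 5.69, 5.74, 5.70 and 5.70 at 10 months and 5.43, 5.71, 5.59 and 5.59 at 18 months. All later samples were below all young ones, and 10 and 18 months overlapped through 18-month array 2. It fell by 0.46 on the log2 scale at 18 months (SE 0.09, 95% interval −0.66 to −0.26, 1.38-fold, limma adjusted p = 0.0155), and at 10 months the change was −0.33 ± 0.09 (adjusted p = 0.102). Leaving out young array 1 gave −0.44 with an adjusted p of 0.0867, and the call held without each other sample. Adjusted for the 3′ minus 5′ difference the change was −0.40 ± 0.27 and was not called. The part of this difference in the change was not tested.

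The other probe sets of Igf1r did not move by as much or varied more between samples. The brightest, 1452982_at, had means of 8.94 ± 0.05 (SD, n = 3), 8.93 ± 0.25 and 8.92 ± 0.12 (n = 4 each) at 2, 10 and 18 months, a change at 18 months of −0.02 ± 0.13 (SE; 95% interval −0.31 to 0.28, adjusted p = 0.952). The interval does not reach −0.46, the change of 1452108_at, but it overlaps the interval of that change (−0.66 to −0.26). A difference between the probe sets was not tested. Igf1r 1428967_at was the most variable of the 5, from 7.43 to 8.20 at 2 months, 6.79 to 8.40 at 10 months and 6.70 to 8.06 at 18 months, and its change of −0.36 ± 0.39 was not called. The remaining probe sets, 1426565_at and 1446303_at, changed by −0.02 and −0.05. Igf1r 1426565_at was higher at 10 months (mean 5.86) than at 2 and 18 months (5.63 and 5.60), and the contrast between the intervals was 0.49 ± 0.22 with an adjusted p of 0.898.

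Insr, the insulin receptor, had values at its brightest probe set (1434446_at) of 9.15, 9.62 and 8.87 in the young, 8.53, 8.51, 9.18 and 8.66 at 10 months and 8.81, 9.11, 8.49 and 9.24 at 18 months. The ages overlapped, and the highest samples within each age were young array 2, 10-month array 3 and 18-month arrays 4 and 2, which are the 4 that lay on the positive side of the first principal component. The change was −0.49 ± 0.23 at 10 months (95% interval −0.99 to 0.01, adjusted p = 0.334) and −0.30 ± 0.23 at 18 months (95% interval −0.80 to 0.20, adjusted p = 0.477). The other probe sets of Insr, 1450225_at and 1421380_at, were below the lower quartile of the array in 3 samples each and changed by 0.03 and −0.21 at 18 months, neither called.

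The substrates pointed in opposite directions without a call. Irs1 (1423104_at, its only probe set) read 9.91, 9.77 and 10.15 at 2 months, 10.12, 9.76, 10.29 and 10.08 at 10 months and 10.26, 10.35, 10.11 and 10.37 at 18 months. Arrays 1, 2 and 4 at 18 months were above all young samples and array 3 was just under the highest young sample. The change at 18 months was 0.33 ± 0.14 (95% interval 0.02 to 0.64), with an unadjusted p of 0.0379 and an adjusted p of 0.182 by limma.

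Irs2 (1443969_at, its only probe set), which like IRS1 couples both receptors to PI3K, read 7.96, 7.72 and 7.89 in young samples, 7.74, 7.43, 7.25 and 7.45 at 10 months and 7.59, 6.53, 7.98 and 7.30 at 18 months. At 10 months 3 of 4 arrays were under the young range, while at 18 months array 2 was the lowest of all samples and array 3 was just above the young range. The changes were −0.39 ± 0.27 (adjusted p = 0.556) at 10 months and −0.51 ± 0.27 (95% interval −1.09 to 0.08, adjusted p = 0.282) at 18 months.

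Of the binding proteins, Igfbp2 (1454159_a_at, its only probe set) had means of 7.77 ± 0.12, 7.98 ± 0.30 and 7.91 ± 0.22 (SD) at 2, 10 and 18 months and a change at 18 months of 0.13 ± 0.17 (SE; adjusted p = 0.688). Igfbp5 was measured by a pair of probe sets with changes of opposite sign at 18 months, whose 95% intervals overlapped. A difference between them was not tested. The brightest, 1452114_s_at, had means of 9.15, 9.26 and 9.30, a change of 0.14 ± 0.13 (95% interval −0.13 to 0.42, adjusted p = 0.547). The other, 1422313_a_at, read 7.13, 6.94 and 7.03 at 2 months, 6.89, 6.84, 6.74 and 7.03 at 10 months and 6.85, 6.67, 6.78 and 6.61 at 18 months. All 18-month arrays were below all young samples, with a change of −0.30 ± 0.11 (95% interval −0.54 to −0.07, unadjusted p = 0.0149, adjusted p = 0.108), which was not called.

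Akt1, a kinase that carries the signal from PI3K to FOXO, GSK3 and mTOR, was measured by 4 probe sets that did not behave alike. The brightest, 1416657_at, read 9.64, 9.58 and 10.03 at 2 months, 10.38, 10.04, 9.59 and 10.19 at 10 months and 9.97, 9.54, 10.35 and 9.82 at 18 months. The ages overlapped and the change at 18 months was 0.17 ± 0.22 (95% interval −0.30 to 0.64, adjusted p = 0.693).

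The called probe set of Akt1, 1425711_a_at, had values of 5.82, 6.11 and 6.47 in the young, 8.12, 6.61, 8.08 and 7.09 at 10 months and 6.86, 7.82, 8.13 and 8.21 at 18 months. Every later sample was above every young sample, the lowest of them 10-month array 2 and 18-month array 1. It rose by 1.62 ± 0.40 at 18 months (95% interval 0.75 to 2.49, 3.08-fold, limma adjusted p = 0.0326), and at 10 months the change was 1.34 ± 0.40 (adjusted p = 0.119). The call was lost on leaving out young array 1 (1.47, adjusted p = 0.164), young array 2 (1.61, adjusted p = 0.0894) or 18-month arrays 2 (1.60, 0.0723), 3 (1.5, 0.0777) or 4 (1.47, 0.0790), and the change remained between 1.47 and 1.92 whichever sample was left out. The 3′ minus 5′ difference was 3.63, 3.29 and 3.49 in the young samples, 1.69, 2.44, 2.09 and 2.36 at 10 months and 2.14, 2.17, 1.64 and 1.98 at 18 months. Its order was the reverse of that of the probe set within 10 months but not within 2 or 18 months. Adjusted for it the change was −0.86 ± 0.81, of the opposite sign and not called. Its part in the change was not tested further.

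A further probe set of Akt1, 1440950_at, lay the other way. It read 7.42, 7.36 and 7.25 at 2 months, 7.12, 7.20, 6.85 and 7.08 at 10 months and 6.93, 6.91, 7.19 and 6.91 at 18 months, all later samples below all young ones. The change of −0.36 ± 0.12 (95% interval −0.62 to −0.11, adjusted p = 0.0823) was not called. Akt1 1442759_at changed by −0.24 ± 0.15 (adjusted p = 0.361). Probe sets of opposite sign at 18 months were found for 5 of the 7 genes with more than 1 probe set (Igf1, Igf2, Insr, Igfbp5 and Akt1). For Insr and Igf2 this rests on changes smaller than their standard error. These were 0.03 ± 0.14 at Insr 1450225_at and −0.06 ± 0.14 at Igf2 1415931_at, a dim probe set. The same share over all genes is not given.

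**Figure D3:**
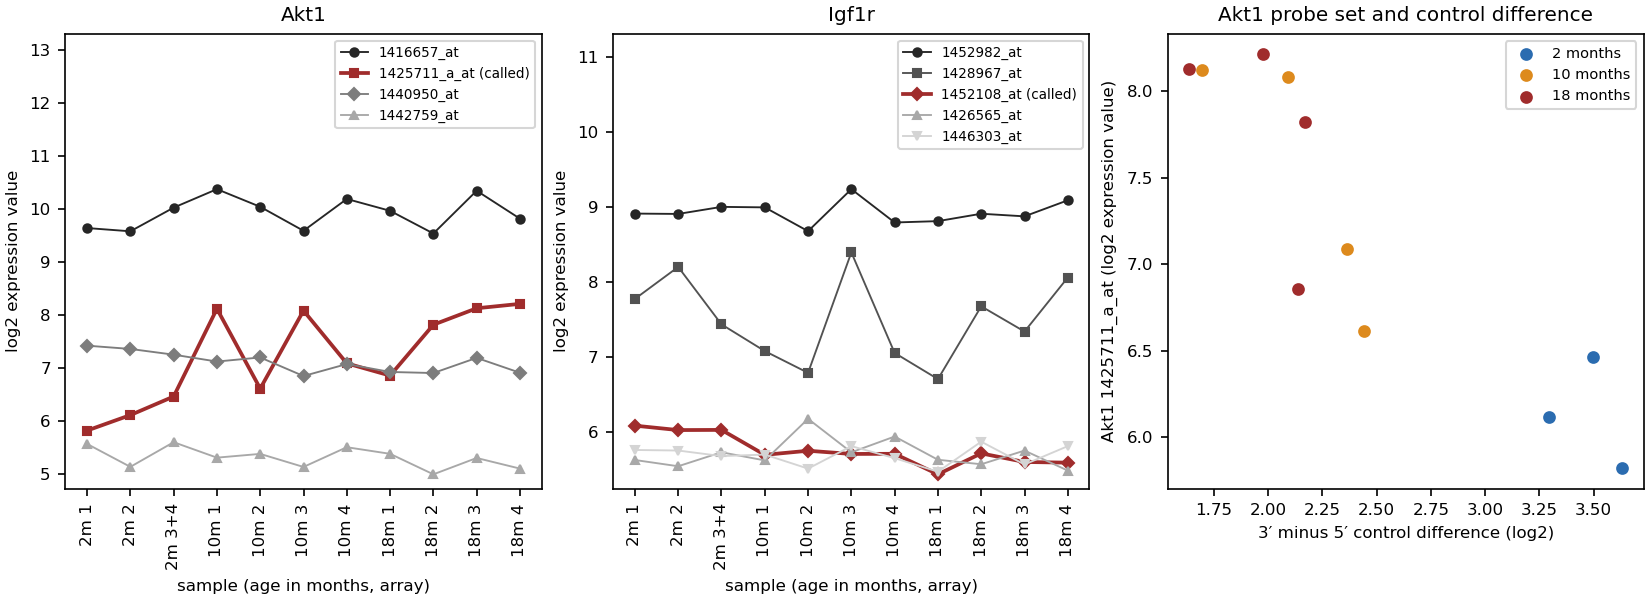
Left and middle, log2 expression value (vertical axis) of each probe set of Akt1 and Igf1r in the 11 samples (horizontal axis, age and array), with the called probe set in red. Right, Akt1 1425711_a_at (vertical axis) against the 3′ minus 5′ control difference (horizontal axis, log2) in the same samples; the young samples, at a difference of 3.29 to 3.63, are apart from all others on both axes.

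Mtor, the kinase of both mTOR complexes, read 10.63, 10.65 and 10.87 at its brightest probe set (1417592_at) in young samples, 10.77, 10.80, 10.31 and 10.75 at 10 months and 10.65, 10.37, 10.89 and 10.48 at 18 months. The ages overlapped, and the change at 18 months was −0.12 ± 0.16 (95% interval −0.46 to 0.22, adjusted p = 0.708). Mtor 1436267_a_at changed by −0.12 and 1446185_at, under the lower quartile of the array in 10 of 11 samples, by −0.13, neither called. Of all 26 probe sets, 22 were at or above the lower quartile in all 11 samples, and Igf2 1415931_at was below it in all.

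The wider pathway was described from lists that hold 74 measured genes, the 10 genes above included, each at its brightest probe set. The lists were chosen with earlier results of these data known, so their shares are descriptive and do not test the pathway. At 18 against 2 months 1 gene rose (1.35%, against 5.76% of all genes) and 7 fell (9.46%, against 3.06%), together 10.8% (8.82% of all genes), while the median change was −0.02 both in the lists and over all genes. Limma called none among 3 ligands, 4 receptors, 13 binding proteins and their proteases, 14 substrates and adaptors and 11 genes of the PI3K list (7 of these 45 at an unadjusted p under 0.05). The PI3K list holds subunits, antagonists and the kinase gene Pdpk1. Ins2 (insulin) changed by −0.21 ± 0.14. Of 9 measured genes of AKT and its targets 4 fell and 5 were not called, with a median of −0.47. Of 20 genes of mTOR complexes, regulators and targets 3 fell, 1 rose and 16 were not called, with a median of 0.08. At 10 against 2 months Sesn2 alone fell of the 74 (1.35%, beside 1.48% of all genes), and between 10 and 18 months limma called none (4 at an unadjusted p under 0.05).

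**Figure D4:**
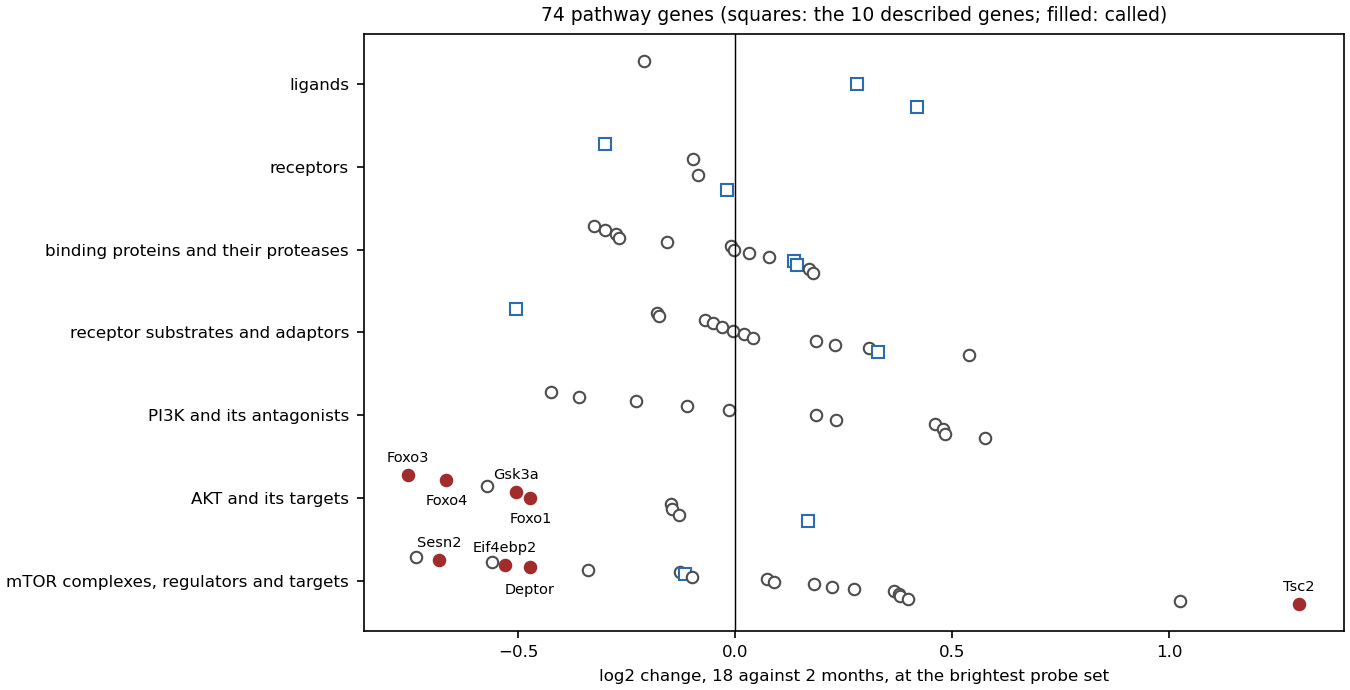
Log2 change at 18 against 2 months (horizontal axis) of the 74 pathway genes at the brightest probe set, by list (vertical axis). Squares are the 10 genes described gene by gene and filled points are called; the called genes are those named, 4 of 9 among AKT and its targets, all lower, and 4 of 20 in the mTOR list.

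The genes of AKT and its targets that fell were 3 FOXO factors and a GSK3 kinase. Foxo4 (1456753_at) read 7.94, 7.80 and 7.84 in the young and 7.25, 7.18, 7.09 and 7.26 at 18 months, with every 18-month array under every young sample, and fell by 0.67 (SE 0.13, adjusted p = 0.0137). Foxo3 (1434831_a_at; 9.54, 9.75 and 9.44 against 9.0, 9.15, 8.29 and 8.86) fell by 0.75 (SE 0.20, adjusted p = 0.0467), and Foxo1 (1416983_s_at; 9.27, 9.47 and 9.36 against 8.92, 9.06, 8.71 and 8.89) fell by 0.47 (SE 0.13, adjusted p = 0.0444). Gsk3a, which phosphorylates glycogen synthase and is held in check by AKT, fell by 0.50 at its only probe set (SE 0.12, adjusted p = 0.0322; 10.71, 10.39 and 10.41 against 10.14, 9.89, 10.09 and 9.87). All 4, which were named because they were called, had no overlap between 2 and 18 months. The same held for 23.6% of all probe sets (4705 higher and 5914 lower at 18 months). The other probe sets were not called and were smaller in size: 0.23, −0.22 and 0.02 for Foxo1, 0.18 and 0.02 for Foxo3 and −0.14 for Foxo4.

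These calls varied in how far they depended on 1 sample. The call of Foxo4 was lost only without young array 1 (−0.63, adjusted p = 0.0855). It was lost for Gsk3a in 6 of 11 fits that left out a sample (young arrays 1 and 2, 10-month array 4 and 18-month arrays 2, 3 and 4), for Foxo3 in 8 (all but 10-month arrays 2 and 3 and 18-month array 2) and for Foxo1 in 9 (all but 10-month arrays 2 and 3). The change in these fits ranged from −0.56 to −0.40 for Gsk3a, −0.82 to −0.57 for Foxo3 and −0.53 to −0.41 for Foxo1, with adjusted p up to 0.169, 0.162 and 0.135. With an intensity trend in the variance, which leaves the changes as they are, the calls of Gsk3a, Foxo1 and Foxo3 were lost (adjusted p = 0.0561, 0.0785 and 0.0552), and with the arrays centred on their medians those of Foxo1 and Foxo3 (changes of −0.41 and −0.69). Adjusted for the 3′ minus 5′ difference none of the 4 was called. Foxo1 and Foxo3 then had changes of 0.060 ± 0.32 and 0.25 ± 0.49 (SE). Those of Foxo4 and Gsk3a were −0.03 ± 0.31 and −0.44 ± 0.36. The difference separates young from later samples, so this fit cannot tell it from age, and its part was not tested.

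**Figure D5:**
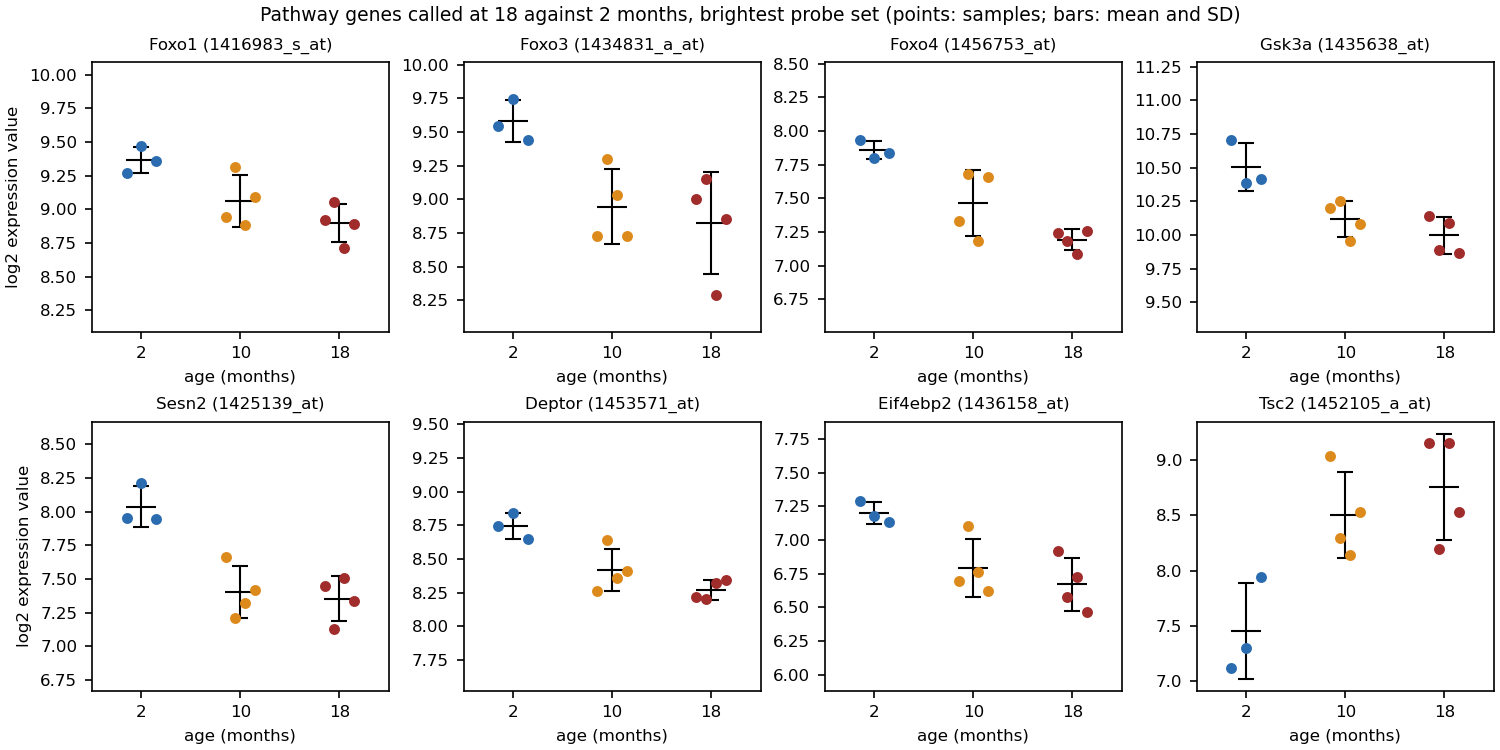
Log2 expression value (vertical axis) by age in months (horizontal axis) of the 8 pathway genes called at 18 against 2 months, at the brightest probe set; points are samples and bars are the mean and SD. Tsc2 is higher at 18 months than in the young, from 8.20 to 9.16 against 7.12 to 7.94, and the other 7 genes are lower.

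In the mTOR list, Tsc2 (1452105_a_at, its only probe set), whose product tuberin restrains mTOR complex 1, read 7.12, 7.31 and 7.94 in the young, 9.04, 8.30, 8.14 and 8.53 at 10 months and 9.15, 8.20, 9.16 and 8.53 at 18 months. All later samples were above all young ones, and the rise at 18 months was 1.3 ± 0.29 (limma adjusted p = 0.0221). Sesn2, a leucine sensor that inhibits mTOR complex 1, read 7.95, 8.21 and 7.94 at 2 months, 7.67, 7.21, 7.32 and 7.42 at 10 months and 7.45, 7.13, 7.50 and 7.34 at 18 months at 1425139_at. It fell by 0.63 at 10 months (SE 0.14, adjusted p = 0.0492) and by 0.68 at 18 months (SE 0.14, adjusted p = 0.0149), with all later samples below the young, and its other probe set changed by −0.34 at 18 months without a call. Deptor, an inhibitor bound to mTOR, fell by 0.47 (SE 0.11, adjusted p = 0.0259) at 1453571_at, while its 5 other probe sets had changes from −0.14 to 1.45, none called. Eif4ebp2, a repressor of translation that mTOR inactivates, fell by 0.53 (SE 0.14, adjusted p = 0.0423) at 1436158_at, beside changes of 0.05, −0.36, −0.35 and −0.11 at its other probe sets, none called. Tsc2, Sesn2 and Deptor are known as inhibitors of mTOR and Eif4ebp2 as one of its targets, so the 3 that fell and the 1 that rose include inhibitors.

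Among these, leaving out a sample removed the call at 18 months of Tsc2 in 4 of 11 fits (young arrays 1 and 2 and 18-month arrays 1 and 3; 1.13 to 1.22, adjusted p up to 0.129) and of Sesn2 in 2 (young arrays 1 and 2; −0.72 to −0.60, adjusted p up to 0.0662). It removed that of Deptor in 5 (young arrays 1 and 2 and 18-month arrays 1, 2 and 3; −0.49 to −0.42, adjusted p up to 0.114) and of Eif4ebp2 in 8 (all but 10-month arrays 2 and 3 and 18-month array 1; −0.56 to −0.46, adjusted p up to 0.188). The call of Sesn2 at 10 months was lost in all 11 (−0.72 to −0.54, adjusted p 0.0511 to 0.232). With the covariate the changes were 0.09 ± 0.73 (SE) for Tsc2 and −1.44 ± 0.30 for Sesn2. They were −0.27 ± 0.31 for Deptor and −0.21 ± 0.39 for Eif4ebp2, and none was called. The part of the covariate was not tested.

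Counting any probe set, 15 of the 74 genes had a called one at 18 months (20.3%, against 14.6% of all genes). These shares are not like for like, since more probe sets per gene give more chances of a call. The 74 genes had 183 probe sets and all 18193 genes had 34945. Of the 15, 7 were called only at a probe set that was not the brightest: Akt1 and Igf1r as above, and Gab1, Sos1, Ptpn11, Pik3ca and Tbc1d4. The adaptor Gab1 rose by 1.11 at 1417694_at, while its brightest probe set changed by 0.31. Pik3ca, the catalytic subunit p110 alpha of PI3K, fell by 0.81 at 1453134_at, while its brightest changed by 0.58 without a call. Sos1, a guanine nucleotide exchange factor for RAS, rose by 0.83 at 1421884_at and the phosphatase gene Ptpn11 fell by 0.74 at 1427699_a_at. Their brightest probe sets changed by −0.00 and 0.19.

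Cell type markers were described as a background to these levels. Over all genes, 8.82% were called at the brightest probe set at 18 against 2 months, 5.76% higher and 3.06% lower. At 18 against 2 months, of the lists at the brightest probe set, neurons in general had 3 of 8 genes that rose (Snap25, Syt1 and Stmn2) and 1 that fell (Rbfox3), and the log2 of their summed level went from 14.9 to 15.3 in the young, 15.2 to 16.0 at 10 months and 15.6 to 15.9 at 18 months. Dopaminergic markers had 1 that rose (Th) and 2 that fell (En1 and Foxa2) of 11, with sums of 16.1 to 16.2, 16.2 to 16.5 and 16.3 to 16.5. Of 7 microglial genes 2 rose (P2ry12 and Tmem119), of 8 vessel genes 1 fell (Pdgfrb), and none of 8 astrocyte, 7 oligodendrocyte, 3 blood and 4 sex-linked genes was called by limma (4 of these 22 had an unadjusted p under 0.05, 3 of them astrocyte genes). The sum of the astrocyte genes ran from 15.3 to 15.4, 15.4 to 15.5 and 15.5 to 15.6 at the 3 ages. Xist, which is transcribed from the inactive X chromosome of females, ran from 8.80 to 9.47 at 2 months and 8.46 to 9.12 at 10 months and read 9.95, 10.62, 7.58 and 10.79 in 18-month arrays 1 to 4, array 3 the lowest of all samples. The Y-linked Eif2s3y ran from 8.62 to 9.62, 7.06 to 9.65 and 7.46 to 8.64 at the 3 ages. The part of the sex makeup of the pools was not tested. The neuronal, dopaminergic and astrocyte sums at 18 months were above every young sample, as was Akt1 1425711_a_at. Of all 45037 probe sets, 4705 were higher at 18 months without overlap. The part of cell makeup in the changes was not tested.

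For the 3 genes that varied most over the 11 samples at the brightest probe set (Irs2, SD 0.42; Igf2, SD 0.38; Insr, SD 0.37), the genes with the most similar centred pattern were listed by the root mean square difference over the samples. For Irs2 these were Lrrc4b (0.117), Nfic (0.155), Dusp7 (0.206), P3h3 (0.210) and Whamm (0.218), against a median of 0.435 over all genes. For Igf2 they were Dcn (0.0901), Cystm1 (0.109), Rsu1 (0.113), Sdhaf2 (0.132) and 3000002C10Rik (0.143), against a median of 0.383. Dcn, which encodes the matrix proteoglycan decorin, was the only one of these in the list of meninges and fibroblasts. The median change of that list at 18 months was −0.16, beside 0.42 for Igf2. For Insr they were Brd1 (0.0933), Stk35 (0.10), Nfe2l1 (0.103), Dnmt3a (0.105) and C030034I22Rik (0.106), against a median of 0.436.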

How the data were processed

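Total RNA of dissected VTA was extracted with the RNeasy micro kit, labelled by a two-cycle protocol and hybridised to Affymetrix mouse genome arrays. The authors normalised the 12 arrays together by RMA and deposited log2 values, 1 for each probe set and array. Limma 3.4.5 is named in the submitters' processing notes in addition. RMA equalises the distribution of values between arrays, so a change common to most genes is not seen, and changes of dim probe sets are compressed. The scanner files were not used here.

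Of 45101 probe sets, 64 controls were left out. Through the array annotation 34945 of the rest were listed with 1 gene, 932 with several (not used by name) and 9160 with none; no genome positions are given, as no build is named. Young arrays 3 and 4 were averaged, and the 11 samples of all ages were fitted together in limma 3.58.1 (R 4.3.3) with a mean per age. The Benjamini-Hochberg adjustment ran over 45037 probe sets. Errors of changes are standard errors of this fit. The contrast of the intervals had no threshold of fold. The genes, pathway lists and marker lists were chosen with earlier results of these data known. By rule, every probe set of the 10 genes is described, along with pathway genes called at the brightest probe set; Gab1, Pik3ca, Sos1, Ptpn11, Tbc1d4, Ins2, Xist and Eif2s3y were named after their values were seen. The fit was tested on simulated data. Array numbers were not used to pair the ages in the main fit. Alternatives were separate arrays, median centring, an adjustment for the 3′ minus 5′ difference, leaving out dim probe sets, a replicate block, only the ages compared, an intensity trend in the variance, leaving out each sample, and, chosen after seeing the data, leaving out the 4 samples on the positive side of the first principal component. An array has no read depth, so precision is set by how many arrays there are.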

Additional observations from a re-analysis of the deposited data

Results flagged for a closer look

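In each group of 4 samples the highest or lowest array was set against the other 3 by Dixon's ratio. Of 68 groups tested (the 26 probe sets and the brightest probe sets of the called pathway genes, at 10 and 18 months), 2 had an array far from the others; about 1 in 20 would by chance, which is 3.4. Akt1 1440950_at was highest in 18-month array 3, at 7.194, with the other 3 arrays at 6.908 to 6.928. Mtor 1417592_at was lowest in 10-month array 3, at 10.31 (10.3065), with the other 3 arrays at 10.75 to 10.80.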

How the results depend on the processing

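Among the 26 probe sets, 482 of 492 combinations of probe set and alternative kept their side of the threshold at 18 against 2 months. All 492 did so at 10 against 2 and at 18 against 10 months, where none was called. Only 2 of the 26 were called at 18 months, so most had no call to lose. For those 2, the call was lost in 8 combinations, and in 1 more with the sign reversed. Igf2 1448152_at gained a call in 1, the fit without its lowest samples at each age, which was not read. Under adjustment for the 3′ minus 5′ difference the change at 18 months turned to −0.86 for Akt1 1425711_a_at, 0.060 for Foxo1 1416983_s_at and 0.25 for Foxo3 1434831_a_at, and 0 of the 26 probe sets, 0 pathway genes and 0 of all probe sets were called. As the difference does not overlap between young and later samples, it and age cannot be told apart. Called probe sets of the 26 at 18 months numbered 0 to 2 with 1 sample left out, and called pathway genes 0 to 11, 3 with an intensity trend in the variance and 5 without the 4 samples on the positive side of the first principal component. Without those 4, which leaves 2, 3 and 2 samples at 2, 10 and 18 months, Akt1 1425711_a_at lost its call (1.35, adjusted p = 0.127). The 1 pathway gene called at 10 months became 0 under median centring, that adjustment, the replicate block, only the ages compared, the intensity trend, without those 4 samples and with any sample left out. Over the whole array, 3359 calls at 18 months became 423 without young array 1, 1668 without young array 2, 1937 to 2111 without any 18-month array and 5326 without 10-month array 3. The 613 calls at 10 months became 977 with 12 separate arrays, 181 with the intensity trend, 0 with only the ages compared, 2 without those 4 samples, and 1 to 1276 with 1 sample left out. Median centring moved the split at 18 months from 2047 higher and 1312 lower to 2540 and 926, and Foxo1, Foxo3 and Eif4ebp2 lost their calls under it at changes of −0.41, −0.69 and −0.47 (adjusted p = 0.0683, 0.0662 and 0.0556), while the intensity trend ended those of Foxo1, Foxo3, Gsk3a, Deptor and Eif4ebp2 (adjusted p 0.0552 to 0.0785). Arrays of the same number correlated from −0.61 to 0.43 in their deviations, with 4 of 12 pairs over 0.1, so the numbers were not taken as pairs. Whether arrays of the same number shared a processing step cannot be told from these correlations. The fit with the replicate block, on 12 arrays, called 2 of the 26 probe sets and 9 pathway genes at 18 months (2548 in all) and 3 probe sets of all at 10 months. The causes of these differences were not tested.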
